A study of Homo sapiens with 18 samples.

Results

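Plastins crosslink actin filaments into tight bundles, and the CDC42 effector proteins, also called Borg proteins, bind the small GTPase CDC42 and septin filaments. The 9 genes described here are the plastins LCP1, PLS1 and PLS3, the GTPase gene CDC42, and the effector genes CDC42EP1 to CDC42EP5. They are 9 of the 57448 Ensembl genes in the count table and were found by matching their Ensembl identifiers to symbols in GENCODE release 44. The set was selected on these data, because LCP1 stood near the top of the genes that differed between myrAKT and WT cells, at rank 9 by p, and CDC42EP3 near the top of those that differed with MK2206, at rank 2. The values of these 2 genes are therefore given as a description without a test, and the other 7 genes were tested.

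RNA was sequenced from MDA-MB-231 cells, a triple negative breast cancer line, in 6 groups of 3 libraries. WT libraries came from unmodified, untreated parental cells. KO1 and KO2 cells are GPS2 knockouts made with sgRNA set 1 and set 2 and Cas9 from lentivirus, and were kept as pools of edited cells rather than clones. myrAKT cells carry myristoylated AKT, a membrane-bound active form of the kinase, delivered by retrovirus. KO1+MK and KO2+MK cells are the same knockout pools after 4 h in 10 µM MK2206, an allosteric AKT inhibitor. WT and myrAKT cells were not treated with MK2206 in these libraries, no library carried a control vector, and the vehicle of the untreated cells is not given in the sources used here.

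In textbook accounts, LCP1 (L-plastin) is the plastin of leukocytes and is also made by many tumour lines, PLS1 (I-plastin) is the plastin of intestinal and other epithelial microvilli, and PLS3 (T-plastin) is the plastin of most solid tissues. CDC42 cycles between a GTP-bound active form and a GDP-bound form, and directs filopodia, polarity and migration. The CDC42EP proteins bind the active form through a CRIB motif and connect it to septins and actin stress fibres. All counts are from whole cultures, so fewer cells that make an RNA and less of it per cell cannot be told apart.

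The total count on genes was 23419198 to 29939536 in the 6 MK2206 libraries and 30287210 to 39319910 in the other 12. Values are given as CPM, counts scaled to the library's size, after TMM normalization. GPS2 RNA was 4.40 to 4.89 CPM in WT, 4.46 to 4.53 CPM in KO1 and 5.90 to 6.14 CPM in KO2, so the gene count did not fall with the edit and does not check the knockout labels. AKT1 RNA was 218 to 242 CPM in myrAKT and 121 to 145 CPM in the other 15 libraries. The 6 markers of MDA-MB-231 cells were VIM, CD44, FN1, MSN, CAV1 and AXL. They summed to 4370 to 4914 CPM in the MK2206 libraries and 5155 to 5485 CPM in the other 12. Of the 6 luminal and epithelial genes, PGR, CDH1 and GRHL2 had 0 to 5 counts per library. ESR1 had 23 to 44, EPCAM 101 to 445 and ERBB2 1941 to 3340. Since LCP1 is a leukocyte gene, 7 leukocyte markers were read as well. PTPRC, CD3E, ITGAM and TYROBP had 0 to 5 counts in every library, CD14 had 13 to 77 and CORO1A 43 to 90. LAPTM5 alone was abundant, at 4224 to 13394 counts, and it made up most of the summed marker level, which was 202 to 241 CPM in WT and 349 to 366 CPM in myrAKT.

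Each gene has its own locus in hg38. LCP1 (ENSG00000136167) lies on the minus strand of chromosome 13 from 46125920 to 46211871, PLS1 (ENSG00000120756) on the plus strand of chromosome 3 from 142596393 to 142713664, and PLS3 (ENSG00000102024) on the plus strand of the X chromosome from 115561174 to 115650861. CDC42 (ENSG00000070831) lies on the plus strand of chromosome 1 from 22052627 to 22101360. CDC42EP1 (ENSG00000128283) is found on chromosome 22 from 37560480 to 37569405 and CDC42EP2 (ENSG00000149798) on chromosome 11 from 65314866 to 65322417, both on the plus strand. CDC42EP3 (ENSG00000163171) is found on chromosome 2 from 37641882 to 37738468, CDC42EP4 (ENSG00000179604) on chromosome 17 from 73283624 to 73312005, and CDC42EP5 (ENSG00000167617) on chromosome 19 from 54465026 to 54473296, these 3 on the minus strand. All 9 are annotated as protein-coding.

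Some of these loci share sequence with other genes, and whether the counting used strand is not given in the sources used here. In GENCODE release 44, 86.6% of the exon bases of CDC42EP2 also lie in exons of ENSG00000285816, a protein-coding gene on the same strand that has no row in the count table. Of the exon bases of CDC42, 14.5% lie in exons of ENSG00000289694, which likewise has no row. The antisense gene CPB2-AS1 covers 19% of the exon bases of LCP1 and had 0 to 12 counts per library. Of the processed CDC42 pseudogenes, CDC42P6 had the most reads, at 60 to 108 counts, against 6725 to 11766 counts for CDC42.

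LCP1 and CDC42EP2 were both lower in knockout and myrAKT cells, and CDC42EP1 and CDC42EP3 were both lower after MK2206. The sequences upstream of a RefSeq start of each are shown to set these regions side by side. They are from RefSeq (GRCh38.p14), 5′ to 3′ on the strand of the gene, and leave out bases that lie in an exon of any GENCODE gene. Capitals mark the GC box GGGCGG on either strand, a motif bound by SP1 family factors. The LCP1 stretch is chr13:46182226-46182427 (minus strand), the CDC42EP2 stretch chr11:65314738-65314865 (plus strand), the CDC42EP1 stretch chr22:37560230-37560479 (plus strand), and the CDC42EP3 stretch, upstream of 1 of the 3 starts RefSeq lists for it, chr2:37672950-37673199 (minus strand).
LCP1: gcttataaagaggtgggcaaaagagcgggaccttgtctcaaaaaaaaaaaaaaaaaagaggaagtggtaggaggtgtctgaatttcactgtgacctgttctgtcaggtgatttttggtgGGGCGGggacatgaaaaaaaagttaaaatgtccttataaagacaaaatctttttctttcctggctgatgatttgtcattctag
CDC42EP2: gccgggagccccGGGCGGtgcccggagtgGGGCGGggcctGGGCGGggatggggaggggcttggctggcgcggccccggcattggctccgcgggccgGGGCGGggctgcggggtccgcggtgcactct
CDC42EP1: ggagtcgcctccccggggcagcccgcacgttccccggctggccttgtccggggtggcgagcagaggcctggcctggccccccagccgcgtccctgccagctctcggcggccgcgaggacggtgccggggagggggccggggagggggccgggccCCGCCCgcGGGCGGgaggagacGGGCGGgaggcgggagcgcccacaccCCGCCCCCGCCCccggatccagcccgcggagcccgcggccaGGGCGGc
CDC42EP3: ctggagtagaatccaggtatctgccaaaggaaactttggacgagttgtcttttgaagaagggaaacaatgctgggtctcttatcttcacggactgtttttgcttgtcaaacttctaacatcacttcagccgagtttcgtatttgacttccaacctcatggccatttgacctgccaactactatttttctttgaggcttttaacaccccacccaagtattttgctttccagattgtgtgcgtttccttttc
The LCP1 stretch has 1 GC box and 38.6% G and C, and the CDC42EP3 stretch has none and 42.4%. By the GENCODE positions given above, both stretches lie inside the span of the gene rather than before its first base. The LCP1 stretch stops 48 bases before its RefSeq start. Upstream of the other CDC42EP3 starts, in windows of 250 bases that are partly exonic, the G and C content is 69.6% with 2 GC boxes and 62.0% with none, so the picture for CDC42EP3 depends on the start. The CDC42EP2 stretch has 4 and 83.6%, and the CDC42EP1 stretch has 6 and 84.0%. Across the 250 bases upstream of all 35116 starts in the table, 42.6% hold a GC box and the median G and C content is 58.0%. The other motifs searched on both strands of the 250 bases upstream of 13 starts of 8 of the genes were FOXO (GTAAACA), AP-1 (TGANTCA), TEAD (GGAATG), the E-box (CACGTG), ETS (CCGGAAG), NF-kB (GGGANTTCC) and the CArG box. None of these letters was found upstream of LCP1, CDC42EP1, CDC42EP2 or CDC42EP3. TEAD letters were found upstream of 2 PLS1 starts (11.9% of all windows hold them) and ETS letters upstream of CDC42EP4 (8.52%). The shares of all windows with the other motifs were 2.98% for FOXO, 6.57% for AP-1, 6.34% for the E-box, 1.59% for NF-kB and 1.16% for the CArG box. CDC42EP5 has no entry in the RefSeq table.

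In WT cells LCP1 was the most abundant plastin and CDC42EP5 the least abundant effector. Per kilobase of canonical transcript, LCP1 was at 172 ± 4.17 CPM per kb (SD, n = 3), PLS3 at 78.8 ± 2.25 and PLS1 at 13.6 ± 0.350. LCP1 made up 65.0% of the plastin sum. Among the effectors CDC42EP3 was at 63.4 ± 2.46 CPM per kb, CDC42EP2 at 39.3 ± 0.636, CDC42EP4 at 31.9 ± 1.32, CDC42EP1 at 30.5 ± 1.29 and CDC42EP5 at 2.60 ± 0.172 (SD, n = 3). With this length CDC42EP1 and CDC42EP4 did not differ beyond their spread. The order of the effectors other than CDC42EP5 depended on the length used. Over the exons of all transcripts, CDC42EP2 (35.7 CPM per kb) came before CDC42EP3 (32.4) and CDC42EP1 (25.8) before CDC42EP4 (20.4). The order of the plastins was LCP1, PLS3, PLS1 with either length.

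**Figure D1:**
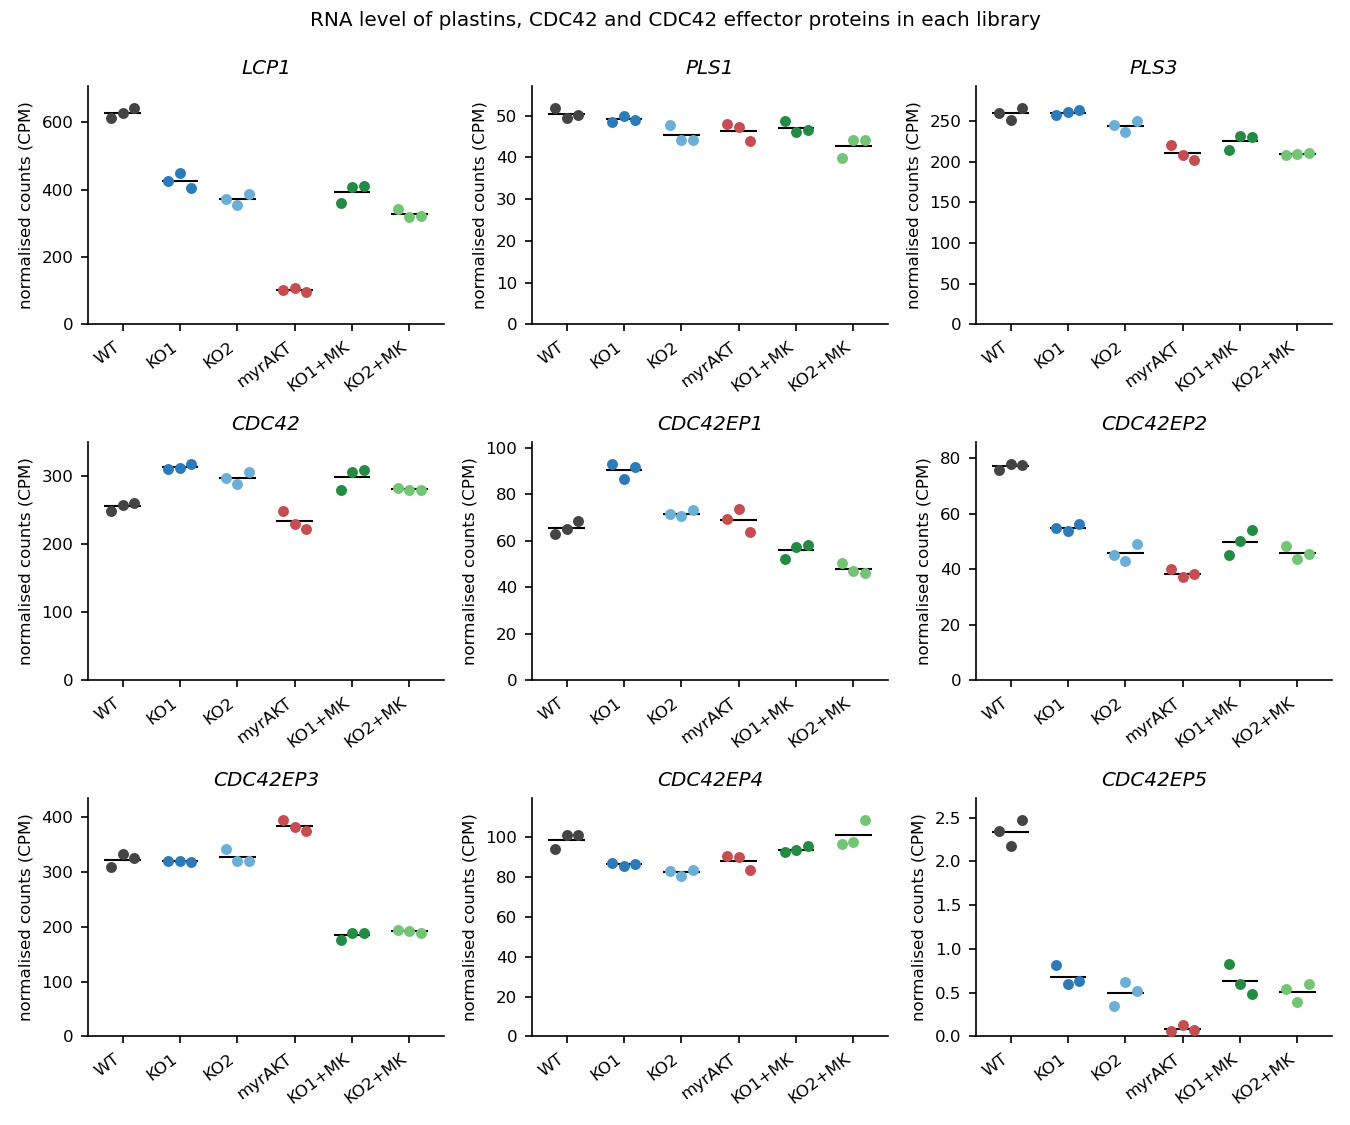
Normalised counts (CPM, linear axis from 0) of each of the 9 genes in all 18 libraries; points are libraries and lines are means of 3. LCP1 went from 612 to 643 CPM in WT to 94.9 to 109 CPM in myrAKT, and CDC42EP3 lay between 176 and 194 CPM in the 6 MK2206 libraries and above 308 CPM in the other 12.

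LCP1 had its highest level in WT and its lowest in myrAKT cells. The WT libraries held 612, 625 and 643 CPM, the KO1 libraries 426, 450.3 and 403 CPM, the KO2 libraries 373, 353 and 386 CPM, and the myrAKT libraries 102, 109 and 94.9 CPM. With MK2206, the KO1 libraries held 361, 407 and 409 CPM and the KO2 libraries 344, 318 and 322 CPM. The WT, KO1, KO2 and myrAKT libraries did not overlap with each other, and the treated libraries of KO1 overlapped with the untreated ones while those of KO2 lay below them. Groups that do not overlap were common among all genes tested, at 69.2% of genes for KO1 against WT, 70.3% for KO2 against WT, 60.9% for myrAKT against WT and 45.7% for KO2 against KO1. With MK2206 the share was 55.5% in KO1, 55.3% in KO2 and 27.5% for both lines together. The log2 fold change against WT was -0.67 (SE 0.0654) for both knockout lines together, -0.57 (SE 0.0390) for KO1, -0.76 (SE 0.0389) for KO2 and -2.63 (SE 0.0545) for myrAKT, which leaves 0.162 of the WT level. With MK2206 it was -0.13 (SE 0.0713) against the untreated knockout cells, and the treated cells stood at -0.81 (SE 0.0768) against WT.

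The other plastins moved little beside LCP1. PLS3 had 259.8, 251 and 266 CPM in WT, 257, 260.4 and 263 CPM in KO1 and 245, 236 and 249.7 CPM in KO2. The KO1 libraries fell within the WT range and the KO2 libraries below it, and the pooled log2 fold change of -0.06 (SE 0.0401, adjusted p = 0.219, edgeR's quasi-likelihood test) did not pass the threshold. In myrAKT cells PLS3 was lower than in WT, at 221, 208 and 202 CPM, by -0.31 on the log2 scale (SE 0.0453, adjusted p = 5.02e-05). PLS1 lay between 39.8 and 51.9 CPM in all 18 libraries and passed the threshold in none of the comparisons by edgeR's quasi-likelihood test, with only the libraries compared in the fit. With all libraries in 1 fit it passed in treated knockout cells against WT, at -0.17 (adjusted p = 0.000914). Its nearest value was KO2 against WT, at -0.16 (SE 0.0410, adjusted p = 0.00374).

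With LCP1 so much lower, the makeup of the plastin RNA differed between groups. Per kilobase of canonical transcript the 3 plastins summed to 264 ± 5.52 CPM per kb in WT, 209 ± 6.27 in KO1, 188 ± 6.75 in KO2 and 104 ± 4.60 in myrAKT (SD, n = 3). The share of LCP1 in this sum was 64.4% to 65.7% in the WT libraries, 53.6% to 57.1% in the KO libraries and 25.8% to 28.2% in the myrAKT libraries. PLS3 made up the larger share in myrAKT, at 59.7% to 62.1%, against 29.2% to 30.3% in WT. The libraries of WT, KO and myrAKT did not overlap in either share. With the exons of all transcripts as the length, LCP1 went from 62.9% of the sum in WT to 25.0% in myrAKT. These shares follow from the LCP1 levels that chose the set and were not tested.

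**Figure D2:**
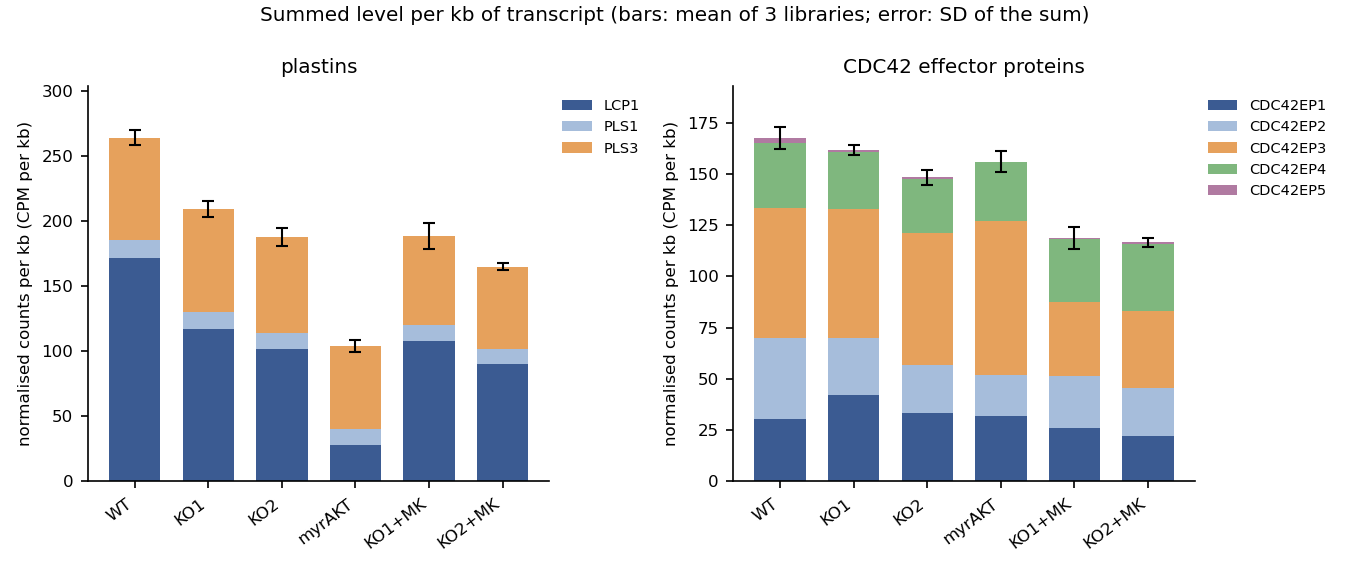
Summed RNA level of the plastins (left) and CDC42 effector proteins (right) in CPM per kb of canonical transcript, as stacked means of 3 libraries per group; error bars are the SD of the sum. The plastin sum went from 264 in WT to 104 in myrAKT, and the effector sum from 168 in WT to 119 in KO1+MK and 117 in KO2+MK.

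GPS2 knockout cells were compared with WT cells to see which genes of the set differ after loss of GPS2. CDC42EP2 and CDC42EP4 fell and CDC42 rose in both knockout lines, and CDC42EP1 rose in KO1. Genes were called at an adjusted p of at most 0.001 without a minimum fold change, in edgeR's quasi-likelihood test over the 15587 genes that reached 1 CPM in 3 or more libraries. Leaving out CDC42EP5, which passed this filter only through WT and is described apart, 1 of 6 genes was called higher and 2 lower in the pooled KO libraries, where 15.5% of all genes tested were higher and 16.6% lower. In KO1 it was 2 higher and 2 lower, against 20.5% and 21.3% of all genes, and in KO2 1 higher and 2 lower, against 20.8% and 22.2%.

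CDC42EP2, the Borg protein also known as Borg1, had 75.8, 78.1 and 77.8 CPM in WT. It had 54.8, 53.9 and 56.3 CPM in KO1 and 45.2, 43.0 and 49.3 CPM in KO2. Every KO library lay below every WT library, and every KO2 library below every KO1 library. Of all genes tested, 55.9% had KO and WT libraries that do not overlap. The share was 69.2% for KO1 against WT, 70.3% for KO2 against WT and 45.7% for KO2 against KO1. The log2 fold change of CDC42EP2 was -0.63 (SE 0.0784, adjusted p = 3.29e-05) in the pooled comparison. It was -0.51 (SE 0.0365, adjusted p = 1.87e-08) in KO1 and -0.76 (SE 0.0454, adjusted p = 1.08e-08) in KO2. Compared directly, KO2 was lower than KO1 by -0.25 (SE 0.0453, adjusted p = 0.00037), a call that was lost without KO1 replicate 1 (adjusted p = 0.0028), KO1 replicate 3 (0.00263), KO2 replicate 1 (0.00297) or KO2 replicate 2 (0.0016).

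CDC42 itself was higher in the knockout cells. The WT libraries had 249, 258 and 261 CPM, the KO1 libraries 310.2, 312 and 318 CPM, and the KO2 libraries 298, 288 and 305 CPM. All KO libraries lay above all WT libraries, by 0.24 on the log2 scale (SE 0.0377, adjusted p = 0.000229), or 1.18-fold. The rise was 0.27 in KO1 (SE 0.0306, adjusted p = 1.76e-06) and 0.21 in KO2 (SE 0.0356, adjusted p = 0.000173). The pooled call was lost without WT replicate 1 (adjusted p = 0.00102), and the KO2 call without KO2 replicate 1 (0.00199) or KO2 replicate 3 (0.00157).

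CDC42EP4, the Borg protein also known as Borg4, had 94.1, 101 and 101 CPM in WT, 87.2, 85.6 and 86.6 CPM in KO1 and 83.3, 80.4 and 83.7 CPM in KO2. The groups did not overlap, and the log2 fold change was -0.25 (SE 0.0382, adjusted p = 0.000179), or 0.843 of the WT level. It was -0.21 in KO1 (SE 0.0363, adjusted p = 0.000117) and -0.27 in KO2 (SE 0.0393, adjusted p = 4.3e-05). The pooled call was lost without a filter (adjusted p = 0.00179) and without WT replicate 2 (0.00257) or WT replicate 3 (0.00284), and the KO1 call without either of them (0.00168 and 0.0033) or without KO1 replicate 1 (0.00169).

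CDC42EP1 differed between the knockout lines. It had 62.9, 65.2 and 68.4 CPM in WT, 93.2, 86.6 and 91.9 CPM in KO1, and 71.4, 70.6 and 73.3 CPM in KO2. The KO1 libraries lay above all the others, and the KO2 libraries between WT and KO1. The rise in KO1 was 0.45 on the log2 scale (SE 0.0412, adjusted p = 2.36e-07), and the value in KO2 was 0.12 (SE 0.0403, adjusted p = 0.0149). The direct test put KO2 below KO1 by -0.32 (SE 0.0349, adjusted p = 1.98e-06). Pooled, the 6 KO libraries gave 0.29 (SE 0.0961, adjusted p = 0.0214), which did not pass the threshold, whereas fitting the lines as separate groups gave 0.28 with an adjusted p of 1.01e-06. Of the 7 genes, CDC42EP1 and CDC42EP2 were called lower in KO2 than in KO1, where 5.54% of all genes were higher and 7.06% lower.

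CDC42EP3 did not stand apart in the knockout cells, with 309, 333 and 326 CPM in WT, 321, 321 and 318 CPM in KO1 and 342, 320.4 and 321 CPM in KO2. The log2 fold change was -0.01 (SE 0.0358), and the groups overlapped. CDC42EP5 was close to the limit of detection outside WT. It had 80, 79 and 92 counts in the WT libraries, 31, 22 and 23 in KO1 and 12, 24 and 19 in KO2. Only its 3 WT libraries reached 1 CPM, so it entered the test through the group where it was high. Summed over libraries and scaled to normalised depth, KO1 had 0.294 of the WT count (exact 95% interval 0.224 to 0.381) and KO2 0.214 (0.157 to 0.287), intervals that cover counting error only. Its log2 fold change in the pooled comparison was -1.99 (SE 0.190).

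**Figure D3:**
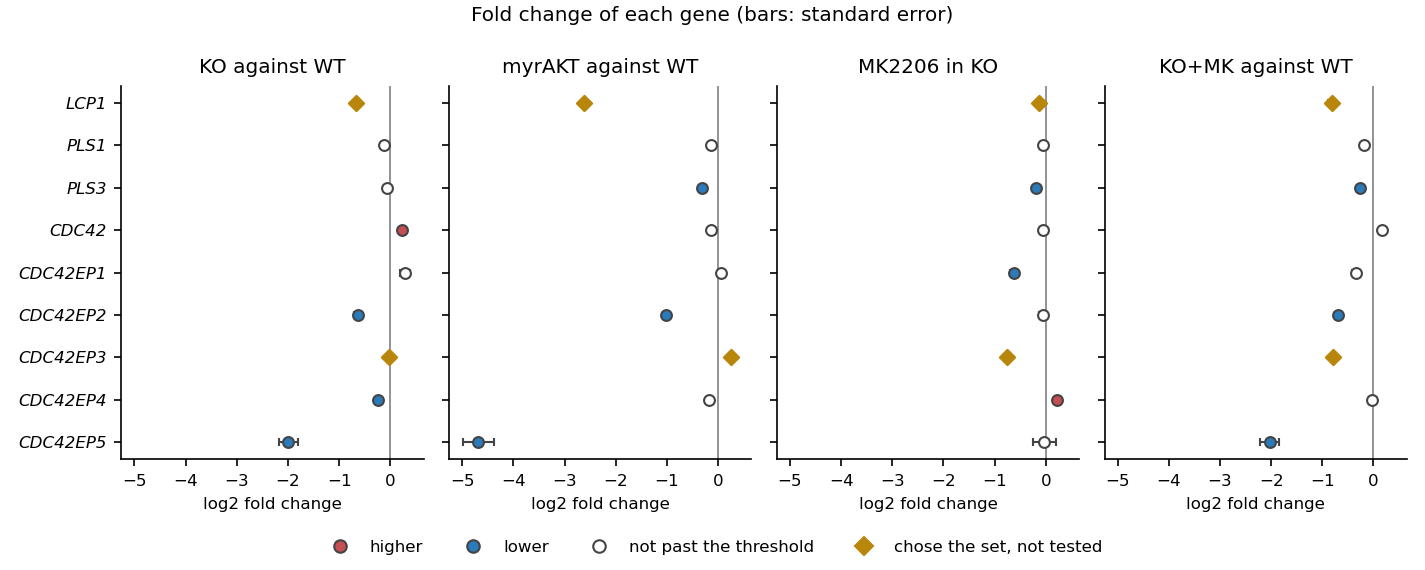
Log2 fold change of each gene in 4 comparisons, with bars for the standard error; filled circles passed an adjusted p of 0.001, open circles did not, and diamonds mark LCP1 and CDC42EP3, which chose the set and were not tested. CDC42EP5 entered the test through WT alone. CDC42EP2 was lower in KO (-0.63) and myrAKT (-1.01), and CDC42EP1 was lower with MK2206 (-0.62).

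Cells with myristoylated AKT were compared with WT cells to see which genes differ under constant AKT activity. CDC42EP2 and PLS3 fell, CDC42EP5 was almost absent, and CDC42, CDC42EP1, CDC42EP4 and PLS1 did not pass the threshold. Leaving out CDC42EP5, which entered the test through WT alone, 2 of 6 genes were lower, where 12.7% of all genes were higher and 17.3% lower. This split over all genes turned with scaling, from 1980 higher and 2697 lower to 2358 and 2312 with upper-quartile normalization and 2413 and 2316 with library totals.

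CDC42EP2 had 40.0, 37.3 and 38.2 CPM in myrAKT, all below the WT libraries and below the lowest KO library (43.0 CPM). For 60.9% of all genes tested, myrAKT and WT libraries did not overlap. The log2 fold change of CDC42EP2 was -1.01 (SE 0.0446, adjusted p = 2.94e-10), or 0.497 of the WT level. CDC42EP5 had 2, 4 and 3 counts in the myrAKT libraries, or 0.0375 of the WT count after scaling to depth (exact 95% interval 0.0169 to 0.0723), which is 26.7-fold lower with an interval of 13.8 to 59.1. CDC42EP3 had 396, 383 and 375 CPM, all above the WT libraries, with a log2 fold change of 0.25 (SE 0.0460).

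The genes that did not pass had small differences. CDC42 had 249, 229.8 and 222 CPM in myrAKT and a log2 fold change of -0.14 (SE 0.0479, adjusted p = 0.0258), and the groups overlapped. CDC42EP4 had 90.7, 90.2 and 83.8 CPM, below the WT libraries, with -0.17 (SE 0.0468, adjusted p = 0.00659). CDC42EP1 had 69.5, 73.6 and 64.0 CPM, which overlapped with WT, with 0.07 (SE 0.0534, adjusted p = 0.303). PLS1 was at -0.13 (SE 0.0469, adjusted p = 0.0336). With canonical transcript lengths, the effectors together came to 156 ± 5.13 CPM per kb in myrAKT and 168 ± 5.35 in WT (SD, n = 3). CDC42EP3 made up 47.6% to 49.1% of this sum in myrAKT against 37.5% to 38.3% in WT.

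The KO and myrAKT comparisons share the 3 WT libraries, so their values are set side by side without a test of likeness. LCP1 was at -0.67 and -2.63, CDC42EP2 at -0.63 and -1.01, CDC42EP5 at -1.99 and, by its counts, 26.7-fold lower. CDC42 was at 0.24 in KO and -0.14 in myrAKT. Of the leukocyte markers that were tested, LAPTM5 rose in myrAKT by 0.68 (SE 0.0603, adjusted p = 3.55e-07), CORO1A had 1.99 CPM in WT and 1.39 in myrAKT, and CD14 had 1.61 and 0.685 CPM. CD14 reached 1 CPM in the WT libraries alone. PTPRC stayed at 0 to 5 counts, and the part of these values in the LCP1 difference was not tested.

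MK2206 was given to the knockout cells to see which genes differ after 4 h of AKT inhibition. CDC42EP1 and PLS3 fell and CDC42EP4 rose. CDC42EP3, which chose the set in this comparison, had the largest difference of the 9 genes. Of the 7 genes tested, 1 was higher and 2 lower, where 12.8% of all genes were higher and 8.75% lower. With upper-quartile normalization the split over all genes was 1695 higher and 1812 lower in place of 1988 and 1364, in KO1 alone 1473 and 1602 in place of 1697 and 1288, and in KO2 alone 1680 and 1854 in place of 2047 and 1369. The summed MDA-MB-231 markers were also lower in every treated library (4370 to 4914 CPM) than in every untreated KO library (5191 to 5400 CPM), and their part in these results was not tested. All treated libraries had fewer counted reads than all untreated ones, and the part of depth in these results was not tested.

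CDC42EP3, the Borg protein also known as Borg2, had 176, 189 and 189 CPM in KO1+MK and 194, 192 and 189 CPM in KO2+MK. The lowest untreated KO library had 318 CPM, so the groups were far apart. MK2206 gave a log2 fold change of -0.76 (SE 0.0291), or 0.590 of the untreated level, and it was -0.77 (SE 0.0333) in KO1 and -0.76 (SE 0.0363) in KO2. The difference between the lines was 0.01 (SE 0.0492). Against WT the treated cells stood at -0.79 (SE 0.0400).

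CDC42EP1, the Borg protein also known as MSE55, had 52.0, 57.5 and 58.4 CPM in KO1+MK and 50.6, 47.0 and 46.4 CPM in KO2+MK. All treated libraries lay below all untreated knockout libraries (70.6 to 93.2 CPM) and also below the WT libraries (62.9 to 68.4 CPM). Of all genes tested, 27.5% had treated and untreated KO libraries that do not overlap. For treated KO and WT libraries the share was 55.1%. The log2 fold change with MK2206 was -0.62 (SE 0.0822, adjusted p = 2.88e-05), -0.67 in KO1 (SE 0.0444, adjusted p = 1.66e-07) and -0.56 in KO2 (SE 0.0429, adjusted p = 1.21e-07). Of 7 genes, 2 were lower in KO1 (PLS3 is the other), where 10.9% of all genes were higher and 8.26% lower, and 1 was higher and 2 lower in KO2, where 13.1% were higher and 8.78% lower.

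PLS3 was modestly lower with MK2206, at 214, 231 and 231 CPM in KO1+MK and 209, 209.6 and 210.2 CPM in KO2+MK. No treated library reached the lowest untreated one (236 CPM). Groups that do not overlap were seen here in 27.5% of all genes tested. PLS3 fell by 0.19 on the log2 scale (SE 0.0351, adjusted p = 0.000481), or 0.876 of the untreated level, with -0.18 in KO1 (SE 0.0340, adjusted p = 0.000759) and -0.20 in KO2 (SE 0.0336, adjusted p = 0.000204). These calls stood close to the threshold. The pooled call was lost without a filter (adjusted p = 0.00108) and without KO1 replicate 1 (0.0015), KO1 replicate 2 (0.00153), KO1 replicate 3 (0.00153) or KO2 replicate 3 (0.00113). The KO1 call was lost with scaling by library totals (0.0015) and without KO1 replicate 1 (0.00413), KO1 replicate 2 (0.00403), KO1 replicate 3 (0.00597), KO1+MK replicate 2 (0.00194) or KO1+MK replicate 3 (0.0016), and the KO2 call without KO2 replicate 1 (0.00236), KO2 replicate 3 (0.00193) or KO2+MK replicate 2 (0.0018).

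CDC42EP4 went the other way, with 92.6, 93.7 and 95.4 CPM in KO1+MK and 96.8, 97.8 and 109 CPM in KO2+MK. All treated libraries lay above all untreated knockout libraries (80.4 to 87.2 CPM), where 27.5% of all genes tested had groups that do not overlap. The log2 fold change was 0.23 (SE 0.0383, adjusted p = 0.000217), 0.14 in KO1 (SE 0.0321, adjusted p = 0.00275) and 0.31 in KO2 (SE 0.0455, adjusted p = 5.19e-05). The pooled call was lost without a filter (adjusted p = 0.00419) or without KO2+MK replicate 2 (0.00124), and KO1 passed when only library totals were used for scaling (0.000591). Whether the lines differ was tested by the interaction of line and treatment, which gave 0.17 (SE 0.0570, adjusted p = 0.382).

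In that interaction test, 0 of the 7 genes passed by edgeR's quasi-likelihood test and 0 of the 6 with an adjusted p by DESeq2, and 0.0128% of all genes did in either direction. At an unadjusted p under 0.05 there was 1 of 7, CDC42EP4, where 1251 of all 15587 genes tested were under it. CDC42, CDC42EP2, PLS1 and CDC42EP5 were not called with MK2206 in either line or in both together. CDC42EP2 had 45.0, 50.1 and 54.3 CPM in KO1+MK and 48.3, 43.8 and 45.6 CPM in KO2+MK. The KO2 values lay within the untreated range and 2 of the 3 KO1 values below it, with a pooled log2 fold change of -0.05 (SE 0.0693, adjusted p = 0.562). CDC42 was at -0.05 (SE 0.0339, adjusted p = 0.207) and PLS1 at -0.05 (SE 0.0490, adjusted p = 0.404). CDC42EP5 had 11 to 20 counts per treated library, and the untreated count was 1.10 times the treated one in KO1 (exact 95% interval 0.758 to 1.60) and 0.967 times in KO2 (0.640 to 1.47), after scaling to depth.

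**Figure D4:**
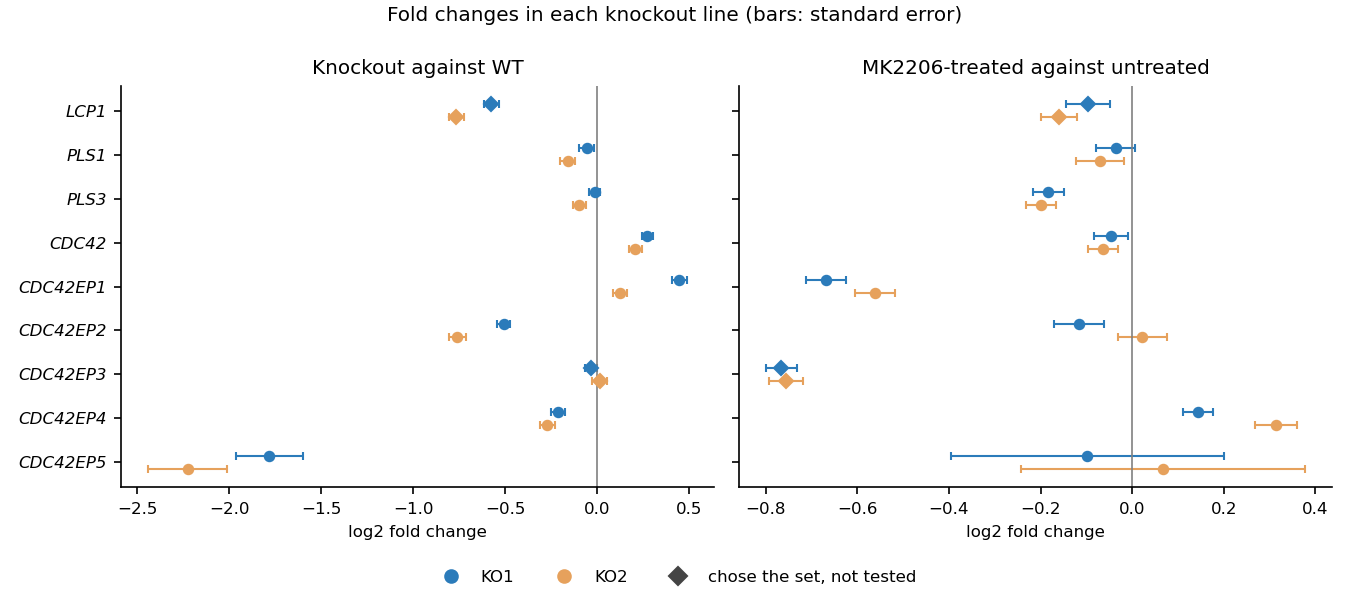
Log2 fold change of each gene in KO1 and KO2 separately, against WT (left) and with MK2206 against untreated cells (right), with bars for the standard error; diamonds mark LCP1 and CDC42EP3. CDC42EP1 against WT was at 0.45 in KO1 and 0.12 in KO2, while with MK2206 it was at -0.67 and -0.56.

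The summed effector RNA was lower after MK2206. The 5 effectors summed to 162 ± 2.26 CPM per kb in KO1 and 148 ± 3.48 in KO2 without the inhibitor, and to 119 ± 5.52 in KO1+MK and 117 ± 2.30 in KO2+MK (SD, n = 3). The share of CDC42EP3 was 38.4% to 44.5% in the untreated KO libraries and 30.1% to 33.1% in the treated ones, and the share of CDC42EP4 was 17.2% to 18.0% and 25.0% to 29.8%. Neither share overlapped between treated and untreated libraries. As means of 6 libraries, CDC42EP3 went from 63.5 to 36.9 CPM per kb and CDC42EP1 from 37.8 to 24.2, while CDC42EP4 went from 27.3 to 31.5. Without CDC42EP3 the other 4 effectors summed to 96.0 to 100.4 CPM per kb in KO1 and 78.0 to 86.2 in KO1+MK, and to 81.4 to 86.8 in KO2 and 76.2 to 80.7 in KO2+MK. The treated libraries of each line lay below its untreated ones, while KO1+MK overlapped with untreated KO2. The sum of all 5 and its shares include the gene that chose the set in this comparison, and were not tested.

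Treated knockout cells were also set beside WT cells, which differ from them in both genotype and treatment. Leaving out CDC42EP5 as before, 2 of 6 genes were lower (PLS3 and CDC42EP2), where 16.0% of all genes were higher and 16.1% lower, and 55.1% had groups that do not overlap. CDC42EP2 stood at -0.70 (SE 0.0597, adjusted p = 1.9e-06), close to its value without the inhibitor. PLS3 stood at -0.26 (SE 0.0437, adjusted p = 0.000279), a call that was lost without WT replicate 1 (adjusted p = 0.00169), WT replicate 2 (0.00111) or WT replicate 3 (0.00311). CDC42EP4, which was lower in the untreated knockout cells, stood at -0.03 (SE 0.0541, adjusted p = 0.683) and overlapped with WT. CDC42EP1 lay below WT in all treated libraries, at -0.34 (SE 0.0724, adjusted p = 0.00148), which passed the threshold with upper-quartile normalization (0.000688), without a filter (4.79e-06), and without KO1+MK replicate 2 (0.000843) or KO1+MK replicate 3 (0.000596). CDC42 lay above WT in all treated libraries, at 0.17 (SE 0.0447, adjusted p = 0.00577). CDC42 and CDC42EP1 passed as well with DESeq2 (adjusted p = 0.00084 and 5.21e-05), with all libraries in 1 fit (0.000215 and 7.75e-07) and with the lines as separate groups (0.000627 and 4.15e-06).

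The levels of a few other genes followed LCP1 or CDC42EP3 closely over the libraries. The 3 tested genes with the highest Pearson correlation to LCP1 in log2 CPM, among 14530 genes with a mean of at least 1 CPM, were CRIP2, DOCK2 and CCND2, each with r = 0.994 over 18 libraries. CCND2, which encodes cyclin D2, had a mean of 178 CPM in WT, 80.3 in KO1, 44.6 in KO2 and 2.69 in myrAKT. DOCK2, a guanine nucleotide exchange factor for RAC best known from leukocytes, had 29.2, 14.4, 10.6 and 1.23 CPM in the same groups, and CRIP2, a LIM domain protein, had 13.9, 7.04, 5.91 and 1.02 CPM. For CDC42EP3 the nearest were the ribosomal protein gene RPL31 (r = 0.984), CRYBG1 (r = 0.982) and SPART (r = 0.981). RPL31 had a mean of 210.2 CPM in KO1, 225 CPM in myrAKT and 167 CPM in KO1+MK, and since ribosomal protein genes have processed copies its count is uncertain. The libraries fall into 6 groups of 3, so these values describe group levels more than single libraries. Within the set, LCP1 was nearest to CDC42EP2 (r = 0.810) and CDC42EP3 to CDC42EP1 (r = 0.754).

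Genes around CDC42 and the plastins were counted in 6 lists, which were chosen with earlier results of these data known. The shares of the lists were not tested against those of all genes. Over all genes tested, 15.5% were called higher and 16.6% lower in KO, 12.7% and 17.3% in myrAKT, and 12.8% and 8.75% with MK2206, and each list is read against these shares. Among exchange factors (GEFs) that load CDC42 with GTP, 19 of 24 were tested, and in KO 5 were lower and the other 14 did not pass. That is 26.3% lower against 16.6% of all genes, with a median log2 fold change of -0.20 against -0.00291 over all genes. PLEKHG1 fell by 1.63 on the log2 scale (SE 0.213, adjusted p = 5.03e-05), from 1.87 to 0.606 CPM, and ARHGEF6 fell by 0.99 (SE 0.191, adjusted p = 0.000849), from 2.86 to 1.45 CPM. In myrAKT 4 GEFs were higher and 5 lower, with ARHGEF6 higher by 1.44 (SE 0.133, adjusted p = 5.15e-07) at 7.84 CPM and MCF2L at -1.84 (SE 0.266, adjusted p = 4.25e-05). With MK2206, 4 were higher and 2 lower. FGD4, the CDC42 exchange factor frabin, rose by 1.23 (SE 0.0989, adjusted p = 3.63e-07), from 1.83 to 4.22 CPM, and PLEKHG1 by 1.05 (SE 0.212, adjusted p = 0.000968).

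Of 16 GAPs and GDIs, the proteins that switch CDC42 off or hold it in the cytosol, 14 were tested. In KO, ARHGAP17 alone passed, at 0.21 (SE 0.0385, adjusted p = 0.0006), and the list median was 0.04. In myrAKT 1 was higher and 2 lower (14.3% lower against 17.3% of all genes). The higher gene was SRGAP3, at 1.61 (SE 0.253), which reached 1 CPM in the myrAKT libraries alone and so entered the test through the group where it was high. ARHGAP1, a GAP for CDC42, was at -0.61 (SE 0.0481, adjusted p = 9.28e-08), which had 73.1 CPM against 111 in WT. With MK2206, 3 were lower (21.4% against 8.75%), among them SRGAP1 at -0.37 (SE 0.0491, adjusted p = 3.34e-05) and ARHGDIB at -0.20 (SE 0.0345, adjusted p = 0.000271).

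Among other effectors of CDC42, 25 of 28 were tested. In KO 2 were higher and 7 lower (28.0% lower against 16.6% of all genes), with a median of -0.13. PAK1, a kinase that active CDC42 and RAC switch on, fell by 0.72 (SE 0.0620, adjusted p = 2.24e-06), from 84.7 to 52.1 CPM, and the scaffold gene IQGAP2 by 0.69 (SE 0.0808, adjusted p = 2.21e-05). In myrAKT 4 were higher and 8 lower (32% lower against 17.3%). IQGAP2 fell by 0.86 (SE 0.0955, adjusted p = 3.48e-06) and CDC42SE2, which encodes a small CDC42-binding protein, by 0.68 (SE 0.0444, adjusted p = 1.57e-08). With MK2206 1 was higher and 3 lower (12% lower against 8.75%). PARD6B, a polarity protein that binds active CDC42, fell by 0.71 (SE 0.0511, adjusted p = 1.38e-07), from 82.0 to 49.3 CPM, and TRIP10, also called CIP4, by 0.46 (SE 0.0380, adjusted p = 4.06e-07).

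Septins, the filament proteins that Borg proteins bind, were tested for 11 of 13 genes. In KO 1 was higher and 2 lower, with a median of -0.19, and the 18.2% lower is near the 16.6% of all genes. SEPTIN5 fell by 0.91 (SE 0.116, adjusted p = 4.29e-05), from 10.8 to 5.84 CPM, and SEPTIN3 by 1.18 (SE 0.222, adjusted p = 0.000723), at 1.40 and 0.623 CPM. In myrAKT SEPTIN5 (-0.80, SE 0.0865, adjusted p = 2.46e-06) and SEPTIN10 (-0.41, SE 0.0420, adjusted p = 1.45e-06) were lower, and with MK2206 SEPTIN9 was (-0.17, SE 0.0283, adjusted p = 0.000175). No other septin passed in these 2 comparisons.

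Of 17 other actin bundling and crosslinking genes, 13 were tested. In KO the only call was filamin gene FLNC, which rose by 0.65 (SE 0.0430, adjusted p = 4.28e-07), from 507 to 806 CPM. In myrAKT 2 were higher and 5 lower (38.5% lower against 17.3% of all genes), with a median of -0.20. The espin gene ESPN fell by 3.08 (SE 0.206, adjusted p = 1.93e-08), from 4.61 to 0.539 CPM, and the drebrin gene DBN1 by 0.85 (SE 0.0453, adjusted p = 1.9e-09), from 251 to 140.0 CPM. With MK2206 4 were lower (30.8% against 8.75%), with a median of -0.17. LIMA1, an actin filament binder also called EPLIN, fell by 0.51 (SE 0.0469, adjusted p = 1.15e-06) and FLNC by 0.41 (SE 0.0486, adjusted p = 1.14e-05).

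All 8 GTPase relatives of CDC42 on the list were tested. In KO, RAC1 rose by 0.17 (SE 0.0336, adjusted p = 0.000882) and RAC2, the RAC of blood cells, fell by 0.37 (SE 0.0560, adjusted p = 0.000156), from 258 to 203 CPM. In myrAKT 2 were higher and 3 lower (37.5% lower against 17.3% of all genes), with RHOJ, a close CDC42 relative, up by 1.33 (SE 0.0879, adjusted p = 1.65e-08) and RAC3 down at -0.61 (SE 0.0619, adjusted p = 1.22e-06). With MK2206 RHOV alone passed, at 0.98 (SE 0.112, adjusted p = 7.55e-06) and 1.94 against 0.995 CPM. Over all lists and comparisons, the all-gene medians lay between -0.00313 and 0.0163.

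**Figure D5:**
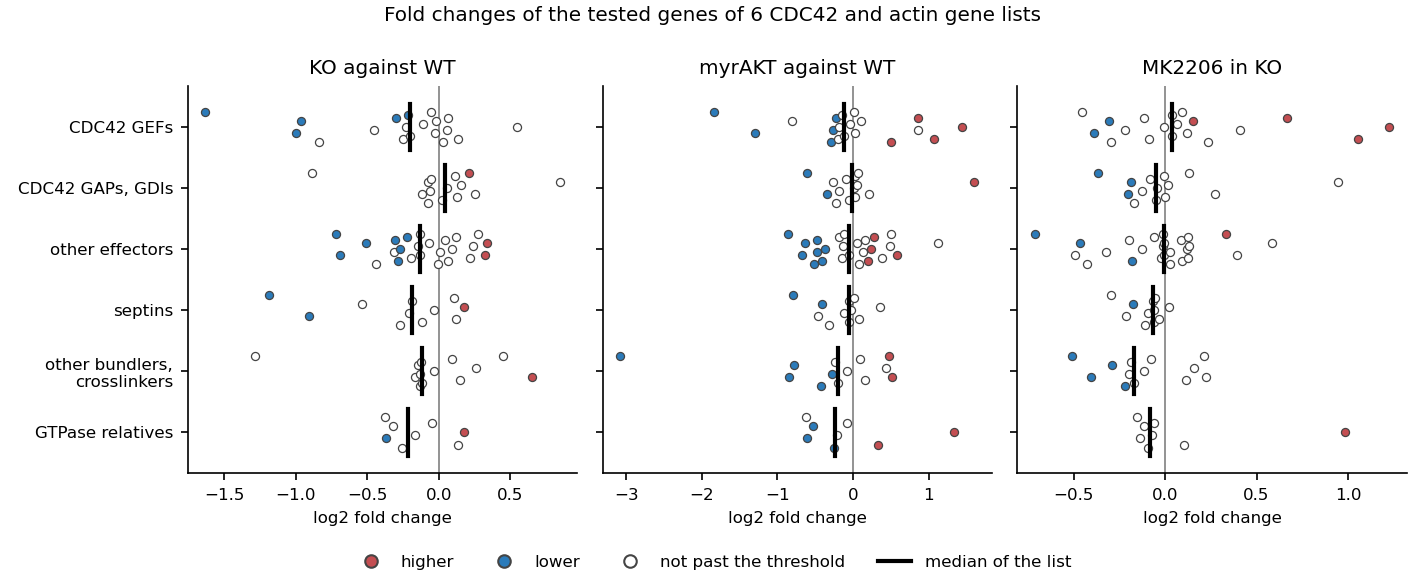
Log2 fold change of every tested gene of 6 lists in 3 comparisons; filled points passed an adjusted p of 0.001 (red higher, blue lower), open points did not, and black bars are list medians. GEFs had 5 lower genes in KO and 4 higher and 5 lower in myrAKT, and actin bundling and crosslinking genes had 4 lower with MK2206.

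Markers of the line itself also moved, in both directions in KO and myrAKT, while with MK2206 the only call was lower and the list median was -0.14. Of the 6 MDA-MB-231 markers, FN1 fell by 0.69 (SE 0.0596, adjusted p = 2.41e-06) and CAV1 rose by 0.46 (SE 0.0650, adjusted p = 9.32e-05) in KO. In myrAKT CD44 fell by 0.50 (SE 0.0476, adjusted p = 7.54e-07) and AXL rose by 0.39 (SE 0.0495, adjusted p = 1.21e-05), and with MK2206 CAV1 fell by 0.40 (SE 0.0686, adjusted p = 0.000276). The luminal and epithelial markers summed to 89.2 to 108 CPM, of which ERBB2 was 79.9 to 93.9 CPM, and EPCAM fell from 12.01 CPM in WT to 9.16 in KO (-0.41, SE 0.0729, adjusted p = 0.000494) and 3.22 in myrAKT (-1.90, SE 0.0919, adjusted p = 7.54e-10). Of the leukocyte markers, CD14 had a mean of 1.61 CPM in WT and 0.674 in KO. The part of these shifts in the results for the plastins and effectors was not tested.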

How the data were processed

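The authors trimmed reads from ribosomal RNA-depleted libraries with Trim Galore, aligned them to hg38 with HISAT2 and counted them per Ensembl gene with featureCounts. Per the labels FastQC and MultiQC were also used, and versions, annotation, strand setting and the handling of reads that hit several genes are not given in the sources used here. The deposited values are raw counts, without normalization or pooling of replicates.

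A gene was kept if it reached 1 CPM in 3 or more of the 18 libraries (15587 of 57448). Groups were compared with edgeR 4.0.16 in R 4.3.3 (TMM, quasi-likelihood test, two-sided, Benjamini-Hochberg over all genes tested), with only the libraries compared in each fit. SE is the log2 fold change divided by the square root of F. DESeq2 1.42.0, named in the methods of the study, was an alternative, as were other normalizations and filters, all libraries in 1 fit, separate lines, a replicate block, other thresholds and the omission of each library. Log2 CPM used a prior count of 2. Count ratios have exact 95% binomial intervals. Python 3.11.15 was used for tables (pandas 2.3.3), intervals (scipy 1.17.1) and plots (matplotlib 3.10.9). The scripts were tested on simulated data.

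The members and gene lists were chosen with earlier results of these data known. Named genes were the 9 members, the 2 members of each list with the largest change among those called in KO, myrAKT and MK2206, the 3 genes most correlated with LCP1 and with CDC42EP3, GPS2 and AKT1. Other markers, the pseudogene and the overlapping genes were named after their values were seen. 1 leukocyte marker fixed at the design stage is not reported here. The methods of the study state 2 sequencing runs without saying which libraries were in which, and the labels name no batch. Labels do not say that replicates came from separate cultures, so p-values measure only the spread between these libraries. The mean chi-square per gene between replicates was 2.26 to 11.6, above sampling noise, so no library was counted as a repeat. Depth limits the precision of low genes such as CDC42EP5.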

Additional observations from a re-analysis of the deposited data

Results flagged for a closer look

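In 3 cases a library stood apart from the rest of their group by Dixon's test, which flags about 1 in 20 groups by chance. CDC42EP3 had 341.9 CPM in KO2 replicate 1, above the other 5 KO libraries, and 176.4 CPM in KO1+MK replicate 1, below the other 5 treated libraries. CDC42EP4 had 108.9 CPM in KO2+MK replicate 3, above the other 5 treated libraries. Neither the log2 fold change of CDC42EP3 nor that of CDC42EP4 with MK2206 turned in direction when these libraries were left out. In KO2 against WT, the log2 fold change of CDC42EP3 went from 0.01487 to -0.02834 without KO2 replicate 1.

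The level differed between the untreated knockout lines for 2 genes by the direct test of KO2 against KO1, which does not use WT. CDC42EP1 was at -0.3242 and CDC42EP2 at -0.2523 on the log2 scale. The CDC42EP2 call was lost without KO1 replicate 1, KO1 replicate 3, KO2 replicate 1 or KO2 replicate 2. It was also lost with all libraries in 1 fit (adjusted p = 0.00118, edgeR's quasi-likelihood test). For CDC42EP1 the lines lay on the same side of WT, and for CDC42EP2 KO2 was further below WT than KO1.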

How the results depend on the processing

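Of 1272 recomputed fold changes of the 7 tested genes, 1160 kept their direction and side of the threshold, 74 lost and 14 gained a call and 24 turned. LCP1 kept its direction in all 162 and CDC42EP3, near 0 against WT and in the interaction, turned in 17 of 162, to values from -0.02834 to 0.02805. Where a value changed and its cause is not named, the cause was not tested. Of the 6 tested genes other than CDC42EP5, the number called was 3 in KO against WT, 4 in KO1, 3 in KO2, 2 in myrAKT, 3 with MK2206 in KO, 2 in KO1, 3 in KO2, 0 in the interaction, 2 in KO2 against KO1 and 2 in KO+MK against WT. CDC42EP5 entered the test through WT alone and would add 1 to each comparison against WT. A minimum fold change of 1.5, at an adjusted p of 0.001 or 0.05, left 1 in KO, 0 in KO1 and 1 in KO2 (2, 1 and 2 with CDC42EP5), 1 in myrAKT and 1 in KO+MK against WT, where PLS3 was lost, 1 with MK2206 in KO, 1 in KO1, 0 in KO2 and 0 in KO2 against KO1, because most changes were smaller. Without a filter, 1 was called with MK2206 in KO, since PLS3 (adjusted p = 0.00108) and CDC42EP4 (0.00419) missed the threshold. With all libraries in 1 fit, 1 was called in KO2 against KO1, where CDC42EP2 missed (0.00118), and 5 in KO+MK against WT, which had 4 with DESeq2 and 4 with the lines as separate groups (6, 5 and 5 with CDC42EP5). With 1 library left out, the number was 2 to 3 in KO, 3 to 4 in KO1, 2 to 3 in KO2, 2 in myrAKT and 1 to 3 in KO+MK against WT (3 to 4, 4 to 5, 3 to 4, 3 and 2 to 4 with CDC42EP5). It was 2 to 3 with MK2206 in KO, 1 to 2 in KO1, 2 to 3 in KO2, 0 in the interaction and 1 to 2 in KO2 against KO1.

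A replicate block gave 1 in KO against WT (2 with CDC42EP5), where CDC42 (adjusted p = 0.00103) and CDC42EP4 (0.00112) missed the threshold, and 1 with MK2206 in KO1, where PLS3 missed it (0.0012). PLS3 also lost its call with MK2206 in KO (0.00146) and in KO+MK against WT (0.00131), which leaves 1 there, and the block changed no other count of these genes by over 1.5 times. The correlation of deviations between libraries with the same number ran from -0.405 to 0.297, and no comparison had every pair over 0.1. The labels do not say whether such libraries share a culture or a batch, and this was not tested.

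Over all genes, the pooled comparisons called more when the lines were not treated as 1 group: 3712 higher and 4077 lower in KO with separate lines in place of 2420 and 2586, and 3068 and 2597 with MK2206 with the line as a covariate in place of 1988 and 1364. With all libraries in 1 fit it was 3785 and 3758 in KO, 2837 and 2956 with MK2206 and 3853 and 3888 in KO+MK against WT in place of 2488 and 2506. DESeq2 gave 2470 and 2150 with MK2206. In the interaction 2 genes were called, both higher, against 18 and 4 with DESeq2, 41 and 19 without a filter, 0 with all libraries in 1 fit, 1 with the block and 1 to 5 with 1 library left out. Without a filter KO2 against KO1 gave 902 and 2174 in place of 864 and 1100 (559 and 926 with all libraries in 1 fit), and MK2206 in KO1 2036 and 2258. In KO+MK against WT no filter gave 2101 and 3765. The line with the replicate block gave 2939 and 2417 with MK2206. MK2206 in KO1 went from 1697 and 1288 to 1015 and 733 without KO1 replicate 1 and to 1147 and 753 without KO1 replicate 3. In KO2 it gave 1399 and 812 without KO2 replicate 1, and 1395 and 761 without KO2+MK replicate 2. KO against WT gave 1799 and 1595 without WT replicate 3. KO2 against KO1 gave 468 and 693 without KO1 replicate 1 and 555 and 775 without KO2 replicate 1. KO+MK against WT gave 1632 and 1737 without WT replicate 1 and 1558 and 1570 without WT replicate 3.

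Directions that turned were of values near 0. PLS3 in KO1 against WT gave 0.02385 without a filter and 0.005801 with all libraries in 1 fit, and ran from -0.02116 to 0.0223 with 1 library left out. CDC42EP2 with MK2206 in KO2 gave -0.02131 with upper-quartile normalization and ran from -0.01667 to 0.07271. CDC42EP5, with few counts, ran from -0.1592 to 0.08749 with MK2206 in KO, -0.3439 to 0.06731 in KO1 and -0.1294 to 0.2735 in KO2. In the interaction PLS3 gave 0.001659 without a filter and ran from -0.0337 to 0.01143, PLS1 from -0.05709 to 0.02832, CDC42 from -0.04534 to 0.009553 and CDC42EP5 from -0.0303 to 0.4103. CDC42EP3 in KO+MK against WT moved to -0.86 without a filter. The knockout line as a covariate with the block, and the second length per kilobase, were chosen after seeing the data. The filter of at least 10 counts could not be applied to CDC42EP5 in myrAKT, and DESeq2 gave no adjusted p for it in the interaction.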
